A study of Homo sapiens with 8 samples.

Results

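The replication fork and chromatin assembly genes examined here are 41 genes whose products copy DNA at the fork or package the new strands. They are the GINS complex, the fork protection and scaffold proteins, the sliding clamp PCNA and its RFC loader, an alternative loader with a cohesion enzyme, DNA polymerases alpha, delta and epsilon, replication protein A, the enzymes that finish Okazaki fragments or remove ribonucleotides, the histone chaperones of nucleosome assembly, and DTL. Members were chosen by name, as the rows of the array with these gene names, with earlier results of these data known. The shares of all genes set beside their counts are therefore descriptions. Where a gene had several probes, the one with the highest mean over all arrays was used. All 41 were well above background on each of the 8 arrays, among 20450 genes that were tested and 34809 gene names on the array.

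HuCCT1 is an established human cholangiocarcinoma cell line, and the study compared its BEX2-knockdown sublines with control cells on 8 single-colour Agilent arrays. The labels call cells with the vectors shControl and shNontarget control cells, and cells with shBEX2-1 and shBEX2-2 BEX2-knockdown cells, with 2 arrays for each vector. In the study's text the control cells expressed a hairpin against luciferase, and in its methods the hairpins came from a retroviral vector and the targets given for the BEX2 hairpins are nearly the same stretch written on opposite strands, so the sublines differ little in the site they target. Neither source says which of the control vectors carries the luciferase hairpin, whether a subline is a clone, or whether both arrays carrying a given vector stem from different cultures, so p-values measure the spread between these arrays, which may be technical.

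At a replication fork the GINS complex joins the MCM helicase and CDC45 to form the motor that opens the double helix. Polymerase alpha-primase lays down short primers, polymerase epsilon extends the leading strand and polymerase delta the lagging strand, and both are held to DNA by the ring PCNA, which the RFC complex opens and closes. Behind the fork, FEN1 and LIG1 join the fragments and CAF-1 with ASF1 places histones on the new DNA. Many of these genes are known to be transcribed in G1 and S phase through E2F sites, and more of their RNA is found in dividing than in resting cells.

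The promoters of members with large and with small changes are shown first, so that the letters they share can be set beside the values. RefSeq (GRCh38.p14) gave windows of 250 bases before to 50 bases after the start site for 35 of the 41 members, 7 of them with several start sites. Each window was searched on both strands for TTTNNCGC (on the other strand GCGNNAAA), the core of E2F sites, for CCAAT (on the other strand ATTGG), which NF-Y binds, and for TTTGAA (on the other strand TTCAAA), the CHR element. The 200 bases before the start site are printed on the gene's strand, with matches to TTTNNCGC and CCAAT in capitals. The first 5 sequences belong to members that rose in BEX2-knockdown cells, and RFC1, POLD2 and POLE4 to members that did not pass the test.
CLSPN: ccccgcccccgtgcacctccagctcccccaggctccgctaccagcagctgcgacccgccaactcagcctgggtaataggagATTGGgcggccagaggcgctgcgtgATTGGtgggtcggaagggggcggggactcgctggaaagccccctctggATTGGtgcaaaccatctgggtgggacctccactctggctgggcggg
GINS2: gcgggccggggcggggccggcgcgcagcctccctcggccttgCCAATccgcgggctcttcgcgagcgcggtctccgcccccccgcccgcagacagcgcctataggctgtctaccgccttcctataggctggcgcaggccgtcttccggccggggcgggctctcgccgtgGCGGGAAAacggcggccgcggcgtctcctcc
DTL: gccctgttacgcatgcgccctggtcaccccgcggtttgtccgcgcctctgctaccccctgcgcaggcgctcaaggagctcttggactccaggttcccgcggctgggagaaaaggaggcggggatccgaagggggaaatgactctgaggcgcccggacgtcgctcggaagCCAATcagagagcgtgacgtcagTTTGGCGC
PCNA: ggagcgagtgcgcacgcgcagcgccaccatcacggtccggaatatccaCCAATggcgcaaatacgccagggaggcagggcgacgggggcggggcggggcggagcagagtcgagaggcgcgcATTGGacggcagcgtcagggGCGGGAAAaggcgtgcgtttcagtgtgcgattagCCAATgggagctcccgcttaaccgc
POLE2: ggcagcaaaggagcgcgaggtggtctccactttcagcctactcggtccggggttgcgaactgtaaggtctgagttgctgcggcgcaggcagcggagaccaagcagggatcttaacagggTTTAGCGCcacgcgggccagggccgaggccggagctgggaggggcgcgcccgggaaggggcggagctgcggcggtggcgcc
RFC1: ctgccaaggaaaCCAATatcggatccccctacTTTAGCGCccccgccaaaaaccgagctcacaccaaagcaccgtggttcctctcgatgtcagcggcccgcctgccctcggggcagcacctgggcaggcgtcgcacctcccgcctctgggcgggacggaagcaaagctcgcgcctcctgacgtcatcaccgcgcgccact
POLD2: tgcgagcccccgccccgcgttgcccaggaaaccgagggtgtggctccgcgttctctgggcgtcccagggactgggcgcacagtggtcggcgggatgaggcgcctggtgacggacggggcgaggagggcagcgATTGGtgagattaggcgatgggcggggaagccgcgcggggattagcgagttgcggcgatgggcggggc
POLE4: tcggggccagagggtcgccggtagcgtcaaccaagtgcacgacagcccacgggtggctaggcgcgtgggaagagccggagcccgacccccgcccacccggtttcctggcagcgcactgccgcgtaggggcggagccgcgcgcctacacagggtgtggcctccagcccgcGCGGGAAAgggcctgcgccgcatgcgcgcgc
These stretches are chr1:35769979-35770178 for CLSPN, chr16:85688955-85689154 for GINS2, chr1:212035548-212035747 for DTL, chr20:5126623-5126822 for PCNA, chr14:49688215-49688414 for POLE2, chr4:39366363-39366562 for RFC1, chr7:44123549-44123748 for POLD2 and chr2:74958443-74958642 for POLE4, on the minus strand except for DTL and POLE4. CLSPN has a match to TTTNNCGC as well, which begins at -5 and runs over the start site, and POLE2 has another that begins at -5. The CCAAT match of POLE4 at -232 and that of POLD2 at 13 lie outside the printed bases. TTTNNCGC was found in 17 of 35 members with a window (48.6%) and in 2246 of all 27305 gene symbols with a window (8.23%). CCAAT was found in 21 of 35 members (60.0%) and in 39.7% of all gene symbols, and TTTGAA in 2 of 35 members (5.71%) and in 18.2%. Both TTTNNCGC and CCAAT were found, over all windows of a gene, in 12 of the 35 members and in 3.74% of all gene symbols. For TIPIN they were in windows of different start sites. Among the members that rose, 14 of 26 with a window held TTTNNCGC, and 3 of the 9 that did not pass the test (RFC1, POLE and POLE4) held it. CCAAT was found in 14 of these 26 and in 7 of the 9, and TTTGAA in 1 of the 26 and 1 of the 9. None of the motifs was found in 7 of the 26 and in 1 of the 9. In no window of a member did matches of different motifs overlap. A match is a description of the letters in the window and does not show that a factor binds there.

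Most of these genes rose together in BEX2-knockdown cells. Levels are given as normalized log2 intensity, the log2 of the processed intensity minus the log2 of the array's 75th percentile, so that levels of different genes, read by different probes, are not compared. Of the 41 genes, 31 were called higher in the 4 BEX2-knockdown than in the 4 control arrays (limma, Benjamini-Hochberg adjusted p under 0.05 over all genes), against 6.68% of all genes tested. None was called lower, against 6.26% of all genes, with 1 member lower at an unadjusted p under 0.05, and 1 called lower by the methods' t-test (POLD4). The median log2 fold change of the 41 genes was 1.19, with a range of -0.41 to 2.70, and the median of all genes was 0.03. A log2 fold change above 1 was seen for 26 of the 41 genes and for 4.35% of all genes. In 30 members every BEX2-knockdown array lay above every control array, as in 11.4% of all genes, and in 1 member (POLD4) every one lay below, as in 10.7%. In such bulk RNA, more cells in S phase and more RNA per cell cannot be told apart. The proliferation marker MKI67 had a log2 fold change of 1.94 (limma, adjusted p = 0.0017) and TOP2A 0.81 (adjusted p = 0.057), and the part of a change in cycling cells in these results was not tested.

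**Figure D1:**
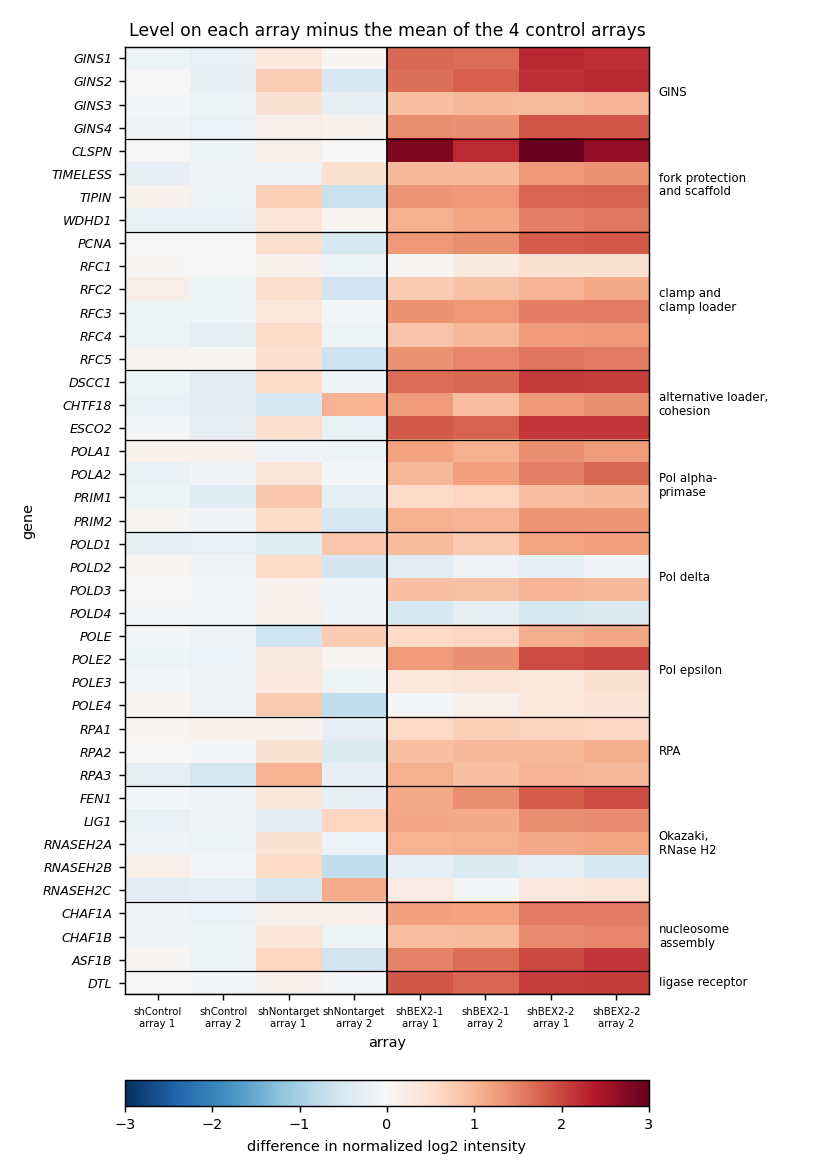
Normalized log2 intensity of each of the 41 genes (rows, grouped by complex) on each of the 8 arrays (columns), minus the gene's mean over the 4 control arrays. The BEX2-knockdown arrays right of the line are red for most genes, with median differences between 1.02 and 1.35 per array, and shNontarget array 1 stands at a median of 0.35.

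Signal well above background was found for 59.8% to 64.6% of spots per array, control spots aside, with no saturated spot. The 8 arrays lay on 1 slide read in 1 scan, the control arrays in row 1 and the BEX2-knockdown arrays in row 2, so slide row and group cannot be told apart. The 75th percentile of the intensity was 667 to 838 on control arrays and 441 to 631 on BEX2-knockdown arrays. BEX2 itself was at -3.36 and -3.91 in shControl, -2.70 and -3.77 in shNontarget, -5.21 and -5.54 in shBEX2-1, and -4.92 and -4.60 in shBEX2-2, a log2 fold change of -1.63 (SE 0.32, limma, adjusted p = 0.0116). BEX2 was not called with normexp background correction (-0.45, adjusted p = 0.0796), against shNontarget alone (-1.83, adjusted p = 0.0787), or in shBEX2-2 cells set against both control vectors (-1.32, adjusted p = 0.0812). Its probe was not well above background on either shBEX2-1 array. With BEX2 set there to each array's lowest signal well above background, it was 3.22-fold below the mean of the control arrays. The biliary markers KRT7, KRT8, KRT18, KRT19 and EPCAM were well above background on all 8 arrays, and KRT8 was higher in BEX2-knockdown cells (1.02, adjusted p = 0.0165). Among leukocyte, fibroblast and endothelial markers, COL3A1 and PECAM1 were well above background on no array, CD3E on 3 and DCN on 2. PTPRC, CD14, COL1A1, CDH5 and VWF were tested, and of these CD14 was called, at 0.54 (adjusted p = 0.0295), whose part in the results was not tested.

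Within shNontarget the arrays disagreed. The 2 arrays of this vector differed by over 1 log2 unit in 15 of the 41 members and in 34.9% of all genes, while no member did so in the other vectors, where the largest difference was 0.54. In 34 members array 1 was the higher and in 7 array 2, namely TIMELESS, CHTF18, POLD1, POLE, LIG1, RNASEH2C and CHAF1A. For 37 of the 41 members the difference was larger than in any other vector. This spread enters every test below, and counts with and without the shNontarget arrays are given beside it. Against the shControl arrays alone 36 members were called higher (limma, 17.2% of all genes) and POLD4 and RNASEH2B lower. In that fit 6842 of 20450 genes were called in either direction, 3514 of them higher. Against the shNontarget arrays alone 10 members were called higher (0.954% of all genes). All 4 BEX2-knockdown arrays lay above both shControl arrays in 37 members (28.4% of all genes) and above both shNontarget arrays in 30 (14.2% of all genes).

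**Figure D2:**
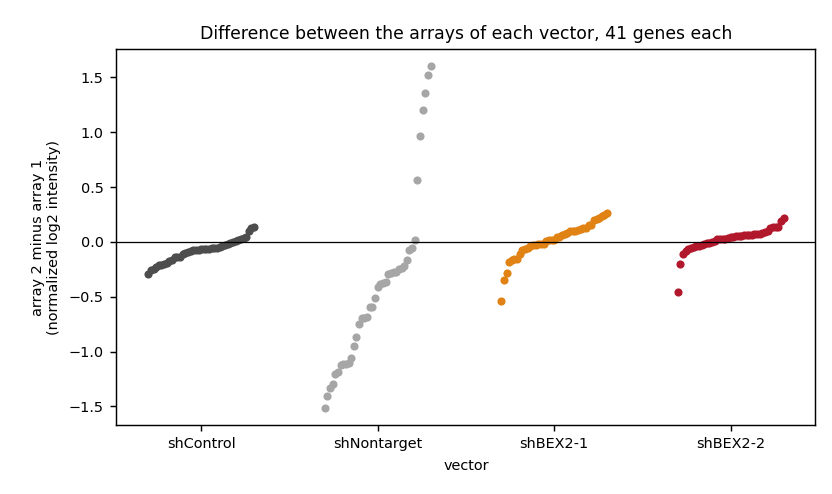
Difference between array 2 and array 1 of each vector in normalized log2 intensity, 1 point per gene in rising order, for the 41 genes. The shNontarget points run from -1.51 to 1.60 and those of the other vectors lie between -0.54 and 0.26.

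All 4 subunits of the GINS complex, which activates the helicase, rose, with a median log2 fold change of 1.80. GINS2 was at -1.21 and -1.44 in shControl, -0.47 and -1.68 in shNontarget, 0.45 and 0.58 in shBEX2-1, and 1.01 and 1.07 in shBEX2-2. Every BEX2-knockdown array was above every control array, and the log2 fold change was 1.98 (SE 0.26, limma, adjusted p = 0.00269). GINS1 rose by 1.96 and GINS4 by 1.64. GINS3 changed least, with 0.49 and 0.43 in shControl, 0.99 and 0.30 in shNontarget, 1.45 and 1.52 in shBEX2-1, and 1.49 and 1.58 in shBEX2-2, a log2 fold change of 0.96 (SE 0.16, limma, adjusted p = 0.00595). Its sublines stood at the same height, unlike those of the other subunits, where both shBEX2-2 arrays lay above both shBEX2-1 arrays.

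The fork protection and scaffold proteins rose in 4 of 4 cases, with a median of 1.44. CLSPN encodes claspin, which carries the checkpoint signal from ATR to CHK1 and keeps forks moving. Its probe (hg19 chr1:36204117-36204176) read -3.66 and -3.80 in shControl, -3.43 and -3.65 in shNontarget, -0.84 and -1.38 in shBEX2-1, and -0.53 and -0.99 in shBEX2-2. The groups were more than 2 log2 units apart at their nearest arrays (2.05), and the log2 fold change of 2.70 (SE 0.20, limma, adjusted p = 0.000621), or 6.48-fold, was the largest of the 41 genes. With normexp background correction the log2 fold change of this dim probe was 1.86 (limma, adjusted p = 0.0006). TIMELESS, whose product pairs with that of TIPIN to couple helicase and polymerase, changed least of the 4, from 1.47 and 1.60 in shControl and 1.60 and 2.17 in shNontarget to 2.68 and 2.69 in shBEX2-1 and 3.01 and 3.06 in shBEX2-2. Its groups did not overlap and its log2 fold change was 1.15 (SE 0.18, limma, adjusted p = 0.00474). TIPIN rose by 1.54 and WDHD1, a scaffold that links polymerase alpha to the helicase, by 1.34.

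Of the sliding clamp and its RFC loader, 5 of 6 genes rose, with a median of 1.27. PCNA was at 1.44 and 1.44 in shControl, 1.93 and 0.97 in shNontarget, 2.75 and 2.85 in shBEX2-1, and 3.26 and 3.29 in shBEX2-2. The shNontarget arrays lay on either side of shControl and below all BEX2-knockdown arrays, and the log2 fold change was 1.59 (SE 0.22, limma, adjusted p = 0.00289). A further PCNA probe gave 1.44. Among the loader subunits, RFC5 rose by 1.49, RFC3 by 1.43, RFC4 by 1.11 and RFC2 by 0.95 (limma, adjusted p = 0.0252). The call of RFC2 was lost when any array outside shNontarget was left out, and in 10 of 22 alternative settings in all. RFC1, the large subunit found only in the PCNA loader, was not called, at 0.39 and 0.36 in shControl, 0.48 and 0.21 in shNontarget, 0.40 and 0.63 in shBEX2-1, and 0.80 and 0.79 in shBEX2-2. One shBEX2-1 array fell inside the control range, and the log2 fold change of 0.30 (95% interval 0.00 to 0.60) did not pass the test (limma, adjusted p = 0.178).

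CHTF18 and DSCC1 belong to the alternative loader that shares RFC2 to RFC5 and acts in sister chromatid cohesion, and ESCO2 acetylates cohesin in S phase. All 3 rose, with a median of 1.90. ESCO2 went from -2.93 and -3.12 in shControl and -2.34 and -3.08 in shNontarget to -1.02 and -1.10 in shBEX2-1 and -0.73 and -0.75 in shBEX2-2, a log2 fold change of 1.97 (SE 0.20, limma, adjusted p = 0.00111). The groups were separate by more than 1 unit. CHTF18, with the smallest change of the 3, was at 0.99 and 0.88 in shControl, 0.74 and 2.27 in shNontarget, 2.49 and 2.14 in shBEX2-1, and 2.53 and 2.62 in shBEX2-2. Here shNontarget array 2 reached into the BEX2-knockdown range. The log2 fold change was 1.22 (SE 0.31, limma, adjusted p = 0.0341). Its call was lost when any shControl, shBEX2-1 or shBEX2-2 array was left out, and in 11 of 22 alternative settings in all.

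**Figure D3:**
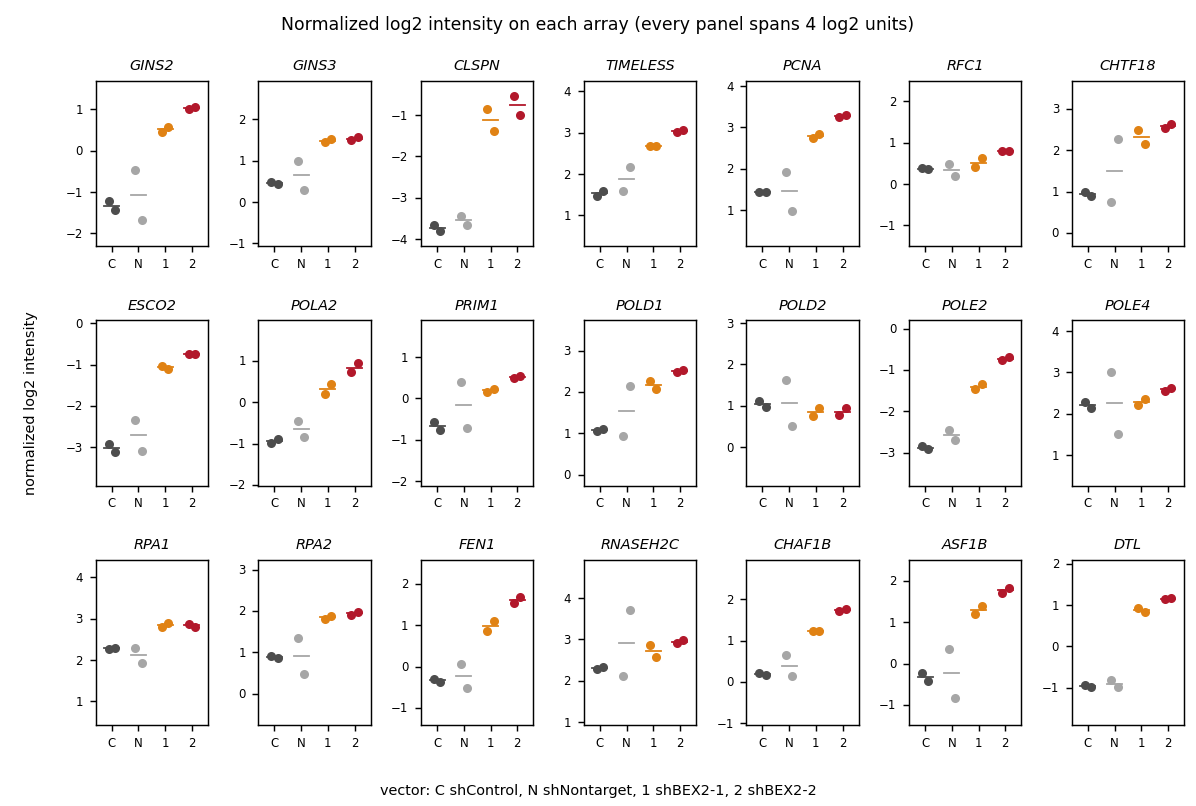
Normalized log2 intensity (vertical axis) on each array (points), by vector (C shControl, N shNontarget, 1 shBEX2-1, 2 shBEX2-2), with the mean of each vector as a bar, for the members with the largest and the smallest absolute change of each complex. Panels start at different levels and each spans 4 log2 units. CLSPN, DTL and POLE2 show wide gaps between control and BEX2-knockdown arrays, and in POLD2, POLE4 and RNASEH2C the groups overlap.

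Polymerase alpha-primase, which starts each fragment, rose in 3 of 4 subunits, with a median of 1.21. POLA2 was at -0.97 and -0.88 in shControl, -0.45 and -0.83 in shNontarget, 0.20 and 0.45 in shBEX2-1, and 0.72 and 0.94 in shBEX2-2. All BEX2-knockdown arrays were higher, with a log2 fold change of 1.36 (SE 0.19, limma, adjusted p = 0.00296). POLA1, the catalytic subunit, rose by 1.24, and PRIM2, the large primase subunit, by 1.18. PRIM1, the catalytic primase subunit, was at -0.57 and -0.78 in shControl, 0.40 and -0.72 in shNontarget, 0.16 and 0.22 in shBEX2-1, and 0.49 and 0.55 in shBEX2-2. shNontarget array 1 lay above both shBEX2-1 arrays, and the log2 fold change of 0.77 (95% interval 0.19 to 1.35) did not pass (limma, adjusted p = 0.0827). Without that array PRIM1 was called, at 1.04 (adjusted p = 0.00146). Without shNontarget array 2 it was not, at 0.67 (limma, adjusted p = 0.116).

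Polymerase delta was called in 2 of its 4 subunits, with a median of 0.37. POLD1, the catalytic subunit, and POLD3 rose, by 1.03 (SE 0.26, limma, adjusted p = 0.0323) and 0.95 (SE 0.11, adjusted p = 0.00147), while POLD2 and POLD4 had negative log2 fold changes and were not called. POLD1 was at 1.06 and 1.09 in shControl, 0.93 and 2.14 in shNontarget, 2.26 and 2.08 in shBEX2-1, and 2.49 and 2.53 in shBEX2-2. As for CHTF18, shNontarget array 2 stood with the BEX2-knockdown arrays. The call of POLD1 was lost without any one of the shControl, shBEX2-1 or shBEX2-2 arrays, and in 9 of 22 alternative settings in all. POLD2, which binds both the catalytic and the accessory subunits, was at 1.11 and 0.98 in shControl, 1.63 and 0.51 in shNontarget, 0.75 and 0.96 in shBEX2-1, and 0.77 and 0.95 in shBEX2-2, with full overlap and a log2 fold change of -0.20 (95% interval -0.69 to 0.29, limma, adjusted p = 0.606). The value for POLD2 was -0.0069 without shNontarget array 1 and -0.38 without shNontarget array 2, and not called in either. POLD4, the smallest subunit, was the one member whose 4 BEX2-knockdown arrays (3.49 to 3.72) lay below all control arrays (3.88 to 4.17). Its log2 fold change of -0.41 (SE 0.12, limma, adjusted p = 0.0602) missed the threshold, and was past it with quantile normalization (adjusted p = 0.0224) and far from it with median scaling (adjusted p = 0.257).

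Polymerase epsilon was called in 1 of its 4 subunits, with a median of 0.61. POLE2, which binds the catalytic subunit and helps to assemble the helicase, was at -2.84 and -2.91 in shControl, -2.46 and -2.70 in shNontarget, -1.46 and -1.35 in shBEX2-1, and -0.76 and -0.69 in shBEX2-2. All 4 vectors stood apart, shBEX2-2 highest, and the log2 fold change was 1.66 (SE 0.21, limma, adjusted p = 0.00222). The catalytic subunit POLE had a log2 fold change of 0.87 (95% interval 0.23 to 1.51, adjusted p = 0.08), and a further, dimmer probe gave 1.65. POLE3 and POLE4, histone-fold subunits that also occur in other complexes, were at 0.36 (95% interval 0.07 to 0.65, adjusted p = 0.101) and 0.20 (-0.43 to 0.84, adjusted p = 0.697). Without shNontarget array 1 POLE3 was called, at 0.45 (adjusted p = 0.0141), and POLE was not, at 0.67 (limma, adjusted p = 0.0878). Without shNontarget array 2 POLE was called, at 1.12 (adjusted p = 0.00931), and POLE3 was not, at 0.31 (limma, adjusted p = 0.0924). POLE4 was at 2.29 and 2.13 in shControl, 3.02 and 1.50 in shNontarget, 2.21 and 2.36 in shBEX2-1, and 2.55 and 2.63 in shBEX2-2. The shNontarget arrays bracketed all other arrays of POLE4, and without shNontarget array 2 its log2 fold change was -0.042, against 0.46 without shNontarget array 1.

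**Figure D4:**
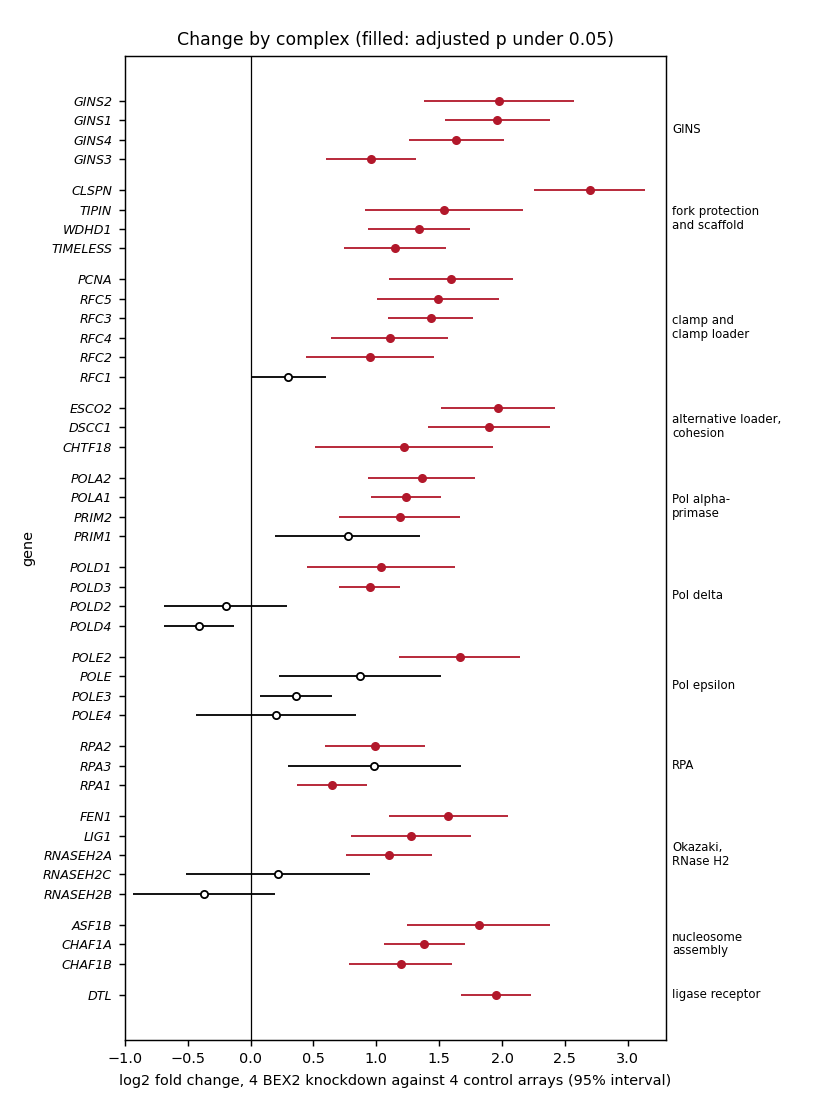
Log2 fold change of each gene between 4 BEX2-knockdown and 4 control arrays (points, with 95% intervals), grouped by complex, filled and red where the adjusted p was under 0.05. The 10 open points include RFC1, POLD2, POLD4, POLE3, POLE4, RNASEH2B and RNASEH2C, whose log2 fold changes lie between -0.41 and 0.36.

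Replication protein A coats single-stranded DNA, and 2 of its 3 subunits rose. RPA2 was at 0.92 and 0.85 in shControl, 1.35 and 0.48 in shNontarget, 1.80 and 1.88 in shBEX2-1, and 1.90 and 1.98 in shBEX2-2, a log2 fold change of 0.99 (SE 0.18, limma, adjusted p = 0.00794). RPA1 moved from 2.27 and 2.30 in shControl and 2.30 and 1.94 in shNontarget to 2.80 and 2.90 in shBEX2-1 and 2.88 and 2.81 in shBEX2-2, by 0.65 (SE 0.12, limma, adjusted p = 0.0105). With these probes both were separate from control on all arrays. A further, dimmer probe gave 0.73 for RPA2 and 0.32 for RPA1. RPA3 had a log2 fold change close to that of RPA2, 0.98, with an SE of 0.30, and was not called (adjusted p = 0.0669), as shNontarget array 1, at 3.90, reached the BEX2-knockdown arrays. Without that array RPA3 was called, at 1.33 (adjusted p = 0.000282). Without shNontarget array 2 it was not, at 0.90 (limma, adjusted p = 0.0947).

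Among the enzymes of Okazaki fragments and ribonucleotide removal, 3 of 5 rose. FEN1, the flap endonuclease, was at -0.31 and -0.36 in shControl, 0.07 and -0.52 in shNontarget, 0.85 and 1.11 in shBEX2-1, and 1.54 and 1.67 in shBEX2-2, a log2 fold change of 1.57 (SE 0.21, limma, adjusted p = 0.0026). The position deposited for its probe (hg19 chr1:91795129-91795188) is on chromosome 1, while RefSeq has the start of FEN1 on chromosome 11, so that this probe may read another locus and the value is uncertain. LIG1, the ligase that seals fragments, rose by 1.27, and RNASEH2A, the catalytic subunit of ribonuclease H2, by 1.10. The other subunits of ribonuclease H2 were not called. RNASEH2B had a log2 fold change of -0.37 (95% interval -0.93 to 0.19, limma, adjusted p = 0.386), which was -0.17 without shNontarget array 1 and -0.61 without shNontarget array 2, where it was called (adjusted p = 0.0278). RNASEH2C was at 2.29 and 2.33 in shControl, 2.12 and 3.72 in shNontarget, 2.86 and 2.58 in shBEX2-1, and 2.92 and 2.98 in shBEX2-2, a log2 fold change of 0.22 (95% interval -0.51 to 0.95, limma, adjusted p = 0.717). shNontarget array 2 was the highest of all 8, and against shNontarget alone the log2 fold change of RNASEH2C was -0.085. Without shNontarget array 2 it was 0.59 and called (adjusted p = 0.0135), and without shNontarget array 1 it was 0.053.

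The histone chaperones of nucleosome assembly and DTL rose in 4 of 4 cases. ASF1B, which hands histones to CAF-1 in dividing cells, was at -0.23 and -0.41 in shControl, 0.36 and -0.83 in shNontarget, 1.20 and 1.40 in shBEX2-1, and 1.70 and 1.84 in shBEX2-2, a log2 fold change of 1.81 (SE 0.25, limma, adjusted p = 0.00299). The large CAF-1 subunit CHAF1A rose by 1.38. CHAF1B was at 0.22 and 0.16 in shControl, 0.65 and 0.13 in shNontarget, 1.22 and 1.24 in shBEX2-1, and 1.71 and 1.76 in shBEX2-2, a log2 fold change of 1.19 (SE 0.18, limma, adjusted p = 0.00423). DTL guides the CRL4 ubiquitin ligase to proteins bound to PCNA on chromatin, such as CDT1. Its probe (hg19 chr1:212277852-212277911) read -0.92 and -0.99 in shControl, -0.81 and -0.98 in shNontarget, 0.94 and 0.83 in shBEX2-1, and 1.14 and 1.17 in shBEX2-2. DTL had little spread within any vector and its log2 fold change was 1.95 (SE 0.12, limma, adjusted p = 0.000621).

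Differences within complexes were also taken from the arrays, as the ratio of a pair of subunits on each array. This comparison was chosen after the values above were seen and covered all 41 pairs within GINS, RFC, the polymerases alpha-primase, delta and epsilon, replication protein A, ribonuclease H2 and CAF-1. In 18 pairs the two-sided exact permutation test of 4 against 4 arrays gave 0.0286, the smallest p that its 70 relabellings allow. After Benjamini-Hochberg adjustment over the 41 pairs this is 0.0651, so that no pair passed. How many pairs of other genes reach that smallest p was not examined. The largest differences in log2 fold change were 1.47 between RNASEH2A and RNASEH2B, 1.46 between POLE2 and POLE4, 1.44 between POLD1 and POLD4 and 1.35 between POLD3 and POLD4, and all 4 were among the 18. The log2 fold change of RFC1 minus that of RFC2, RFC3, RFC4 or RFC5 was -0.65, -1.13, -0.81 and -1.19, and all of these pairs were among the 18. The difference was 0.19 between CHAF1A and CHAF1B and -0.01 between GINS1 and GINS2, neither beyond the spread of their arrays (exact permutation p = 0.2 and 1).

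Each subline was then set against both control vectors in a model with the 4 vectors. In shBEX2-1 cells 23 members were called higher (limma, 3.40% of all genes) and none lower (3.63% of all genes), with a median log2 fold change of 1.05. In shBEX2-2 cells 28 were called higher (4.86% of all genes) and none lower (4.81% of all genes), with a median of 1.34. CLSPN led in both sublines, with 2.52 (adjusted p = 0.0068) and 2.87 (adjusted p = 0.00315). These sublines share their control arrays. The counts rest on single arrays. All shBEX2-1 calls were lost without any one of the shControl or shBEX2-1 arrays, and fewer remained without a shBEX2-2 array. All shBEX2-2 calls were lost without either shBEX2-2 array, and fewer remained without a shControl or shBEX2-1 array. Without either shNontarget array more members were called in both sublines, and far more of all genes were called as well. These fits leave 1 array in a vector, so their counts are not given. Median scaling of the arrays gave 13 for shBEX2-1 (4.41% of all genes) and 23 for shBEX2-2 (6.67% of all genes).

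Between the sublines most members were higher in shBEX2-2 cells. The fitted difference was positive in 38 of 41 members, with a median of 0.31, and in 44.5% of all genes, with a median of -0.04. Both shBEX2-2 arrays lay above both shBEX2-1 arrays in 33 members, against 26.7% of all genes. With the spread of all 8 arrays, none of the 41 members was called (limma, 0.00978% of all genes called). An unadjusted p under 0.05 was seen for 1491 of 20450 genes and for 8 members. These 8 were GINS1, GINS4, WDHD1, POLA2, POLE2, FEN1, CHAF1A and CHAF1B, with POLE2 the largest at 0.68 (95% interval 0.29 to 1.07, adjusted p = 0.273). The sublines overlapped in GINS3, CLSPN, POLD2, POLD4, POLE3, RPA1, RPA3 and RNASEH2B, where GINS3, for example, differed by 0.05 (95% interval -0.51 to 0.61). Without both shNontarget arrays, a setting chosen after the data were seen, 18 members were called, all higher in shBEX2-2 (7.49% of all genes were called higher). They were GINS1, GINS2, GINS4, TIMELESS, TIPIN, WDHD1, PCNA, RFC4, POLA2, POLD1, POLE, POLE2, PRIM2, FEN1, CHAF1A, CHAF1B, ASF1B and DSCC1. Leaving out shNontarget array 1 or 2 alone leaves 1 array in that vector, so those calls are not given. The fitted difference itself is the same with and without the shNontarget arrays, so that only the spread in the test changed. BEX2 was not well above background on the shBEX2-1 arrays, so its level was not compared between the sublines.

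Between the control vectors no member was called (limma, 0% of all genes called) and 2 members had an unadjusted p under 0.05, with 1567 such genes of 20450. The difference of shNontarget from shControl was positive in 35 of 41 members, with a median of 0.18 and a range of -0.21 to 0.79. It was largest for RPA3, RNASEH2C and CHTF18, each of which owed it to 1 shNontarget array. Fits without shNontarget array 1 or without shNontarget array 2 keep 1 array in that vector, so their calls are not given. Against the mean of all control arrays, the members' median was 0.35 on shNontarget array 1 and -0.14 on shNontarget array 2. On array 1, 34 of the 41 members lay above that mean and on array 2, 11, so the direction differed between these arrays.

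Other genes of DNA replication, from lists compiled by hand, were set beside these members. Origin licensing and helicase activation genes rose in 15 of 19 cases with none called lower and a median log2 fold change of 1.44, led by MCM10, a scaffold of helicase activation, at 2.17 (adjusted p = 0.000887), with ORC4 lowest at -0.12 (adjusted p = 0.63). Of 19 other fork-associated factors 8 rose and 2 fell, with a median of 0.54, from ATAD5, which unloads PCNA, at 2.14 (adjusted p = 0.00333) to RAD17, the checkpoint clamp loader, which fell by 0.72 (adjusted p = 0.0183). Of 16 other histone chaperones 4 rose and none fell, with a median of 0.28, from HJURP, the centromeric histone chaperone, at 1.53 (adjusted p = 0.00633) to ATRX at -0.43 (adjusted p = 0.0634). ASF1A, the paralog of ASF1B, was at 0.03 (adjusted p = 0.959). Of 12 other cohesion genes 2 rose and 2 fell, with a median of -0.06, from CDCA5 (sororin), at 1.49 (adjusted p = 0.0028), to MAU2, a cohesin loader subunit, which fell by 0.64 (adjusted p = 0.0185). Of 11 repair and translesion polymerases 2 rose and none fell, with a median of -0.03, from POLQ at 1.55 (adjusted p = 0.0089) to POLI at -0.83 (adjusted p = 0.119). All these adjusted p are from the same limma fit over 20450 genes.

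**Figure D5:**
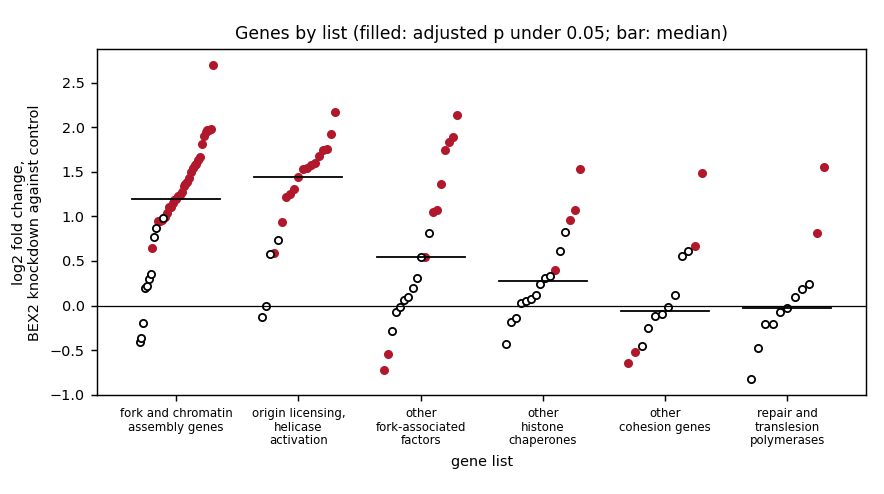
Log2 fold change between BEX2-knockdown and control arrays for the 41 genes and for 5 other lists of replication and chromatin genes, 1 point per gene in rising order, filled where the adjusted p was under 0.05, with the median as a bar. Medians are 1.19 for the 41 genes, 1.44 for origin licensing and between -0.06 and 0.54 for the others.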

How the data were processed

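RNA of HuCCT1 cells was hybridised to 8 single-colour Agilent arrays (design 028004), 2 for each of 4 vectors, grouped by the vector in the labels. The authors deposited scanner output of Agilent Feature Extraction, whose version the submitters' processing notes give as 10.7.3.1, with the processed signal intensity of each spot, already background-subtracted, and flags for outliers and for signal above background. The deposited series table holds the same intensity values, rounded and not scaled between arrays, and served as an alternative. From these, log2 of the processed intensity minus the log2 of each array's 75th percentile was taken, spots of a probe were averaged, control spots and spots the scanner software marked as non-uniform were left out, and a gene was kept if well above background on at least 4 arrays.

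Groups were compared with limma 3.58.1 in R 4.3.3, with an intensity trend in the prior variance and Benjamini-Hochberg adjustment over 20450 genes, in a model with 2 groups and in one with 4 vectors. The study's methods name a rank product analysis, which was not used here. Ratios of subunits were compared by exact permutation tests, and scripts were tested on simulated data. The alternatives were no such trend, quantile normalization, median scaling, normexp with an offset of 50, other filters and probe choices, each control vector alone, a random block for vector with statmod 1.5.0, a replicate block, the methods' t-test and leaving out each array. Plots were drawn with matplotlib 3.10.9, and tables and promoter searches made with pandas 2.3.3 and numpy 2.4.6 in Python 3.11.15.

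Replicates 1 and 2 each carry a day of their own without a statement of what was done on it. Their deviations correlated between vectors at 0.26, 0.13, 0.11, -0.06, 0.21 and 0.23, so not every pair passed 0.1 and the numbers were not taken to pair the arrays. Members and lists were chosen with earlier results of these data known. The members with the largest and the smallest absolute change of each complex, and PCNA, are given on every array, and of each other list the genes with the highest and lowest log2 fold change are named. MKI67, TOP2A, ASF1A, the cell type markers with a value, and members named for subunit or subline differences were added after their values were seen. One listed marker is not reported here. The number of arrays limits the precision.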

Additional observations from a re-analysis of the deposited data

Results flagged for a closer look

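In 8 of 82 sets of 4 arrays (41 genes in control and in BEX2-knockdown cells), the highest or lowest array stood apart from the other 3 by Dixon's ratio of its gap to the nearest array over the whole range, at the 95% level. Chance gives about 1 in 20 such sets. All 8 were control sets in which a shNontarget array stood apart. shNontarget array 1 was the highest for RFC3 (-2.14 against -2.52 for the next array, gap 0.841 of the range), RPA3 (3.90 against 2.60, 0.831), RNASEH2A (1.95 against 1.43, 0.87) and CHAF1B (0.65 against 0.22, 0.84). shNontarget array 2 was the highest for CHTF18 (2.27 against 0.99, 0.84), POLD1 (2.14 against 1.09, 0.866) and RNASEH2C (3.72 against 2.33, 0.867), and the lowest for RPA1 (1.94 against 2.27, 0.911). In 0 members did the sublines lie on opposite sides of the control mean.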

How the results depend on the processing

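The median log2 fold change of the 41 genes (1.19) kept its direction and size under every alternative run, between 1.08 and 1.33, and 1.13 to 1.30 when each array was left out. Of 902 combinations of member and alternative, 49 lost and 24 gained a call, and 2 changed sign, RNASEH2C (0.22) to -0.085 against shNontarget alone and POLE4 (0.20) to -0.042 without shNontarget array 2, the low end of its range to 0.46 when each array was left out. With shControl alone as control, 6842 genes were called in place of 2646 and 3514 of them higher in place of 1366. In that setting 2 members were called lower. There 33 subunit pairs did not overlap in place of 18, but with 2 control arrays in place of 4 such separation is easier to reach. With 3 vectors fitted, 38 members were called in shBEX2-1 (43.6% of all genes) and 18 between sublines (14.6% of all genes). With shNontarget alone, 341 genes were called and 195 higher, and 10 members higher. With 3 vectors fitted, 0 members were then called in shBEX2-1 (0% of all genes) and 5 in shBEX2-2 (0.313% of all genes). Quantile normalization, normexp, the random block and the methods' t-test each called 1 member lower, and median scaling called 13 members in shBEX2-1 (4.41% of all genes). The cause was not tested.

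Leaving out each array gave 1247 to 4722 genes called and 655 to 2453 higher, 28 to 34 members higher and 0 to 2 lower, 0 to 40 called in shBEX2-1, 0 to 40 in shBEX2-2, 0 to 18 between sublines, 0 to 29 between control vectors and 18 to 26 subunit pairs. Counts over all genes rose without either shNontarget array and fell without any of the other 6, and where a vector kept 1 array it was assumed to vary like the rest. With the replicate block 2457 genes and 31 members higher were called. It called 18 members in shBEX2-1 (4.99% of all genes) and 25 in shBEX2-2 (7.81% of all genes), and no count moved by over 1.5 times. BEX2 (-1.63) was not past the threshold with normexp (-0.45, adjusted p = 0.0796) or against shNontarget alone (-1.83, adjusted p = 0.0787). The settings with 3 vectors fitted and the subunit pairs were chosen after seeing the data.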
